A study of Mus musculus with 12 samples.

Results

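Adamts genes encode secreted metalloproteinases of the extracellular matrix, and 10 of them were followed in hernia-associated fibroblasts (HAFs) treated with estrogen (E2) or with the estrogen receptor antagonist fulvestrant. The genes were Adamts1, Adamts2, Adamts3, Adamts4, Adamts5, Adamts6, Adamts7, Adamts9, Adamts10 and Adamts12. They were taken by symbol from the RNA-seq table of normalized counts, in which all 10 had a row among 13233 genes. The HAFs were primary fibroblasts from the lower abdominal muscle (LAM) of Arom hum mice, which carry the human aromatase gene, and the labels call them skeletal muscle fibroblasts. Every sample shared that genotype, so no cells without the transgene entered these comparisons, and the mice's age was not given in the labels. Cells were enriched by adherence, passaged and kept in medium with little charcoal-stripped serum for 48 hours. One group received only the solvents, DMSO and ethanol (vehicle), another E2 at 10 nM, another E2 at 10 nM together with fulvestrant at 100 nM, and the last fulvestrant at 100 nM alone. There were 3 samples per group and 12 in all, numbered 1 to 3 within each group. The labels do not say whether the numbers stand for separate mice or cultures. The main fit included this number, so its p-values measure the spread left after treatment and number, which may be technical.

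An ADAMTS protein joins a zinc protease domain to a tail of thrombospondin repeats that docks it in the matrix. Furin and related convertases remove its propeptide, and TIMP3 is its best-known tissue inhibitor. The family is usually sorted by substrate. Adamts2 and Adamts3 encode procollagen N-proteinases, which trim fibrillar procollagens before fibrils assemble, and ADAMTS3 also activates the lymphatic growth factor VEGF-C. Adamts1, Adamts4, Adamts5 and Adamts9 encode proteoglycanases that cut versican and aggrecan. Adamts6 and Adamts10 encode closely related enzymes tied to fibrillin microfibrils, and Adamts7 and Adamts12 encode a pair that can cut cartilage oligomeric matrix protein (COMP). In fibrotic tissue such enzymes bear on how much collagen and proteoglycan is laid down and removed.

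RefSeq promoter sequences (GRCm38.p6, 250 bases before to 50 after the start site) matched 5 of the 10 genes by symbol, namely Adamts1, Adamts2, Adamts3, Adamts9 and Adamts12. Those of Adamts2 (chr11:50601835-50602134, plus strand), Adamts3 (chr5:89883285-89883584, minus strand) and Adamts9 (chr6:92943485-92943784, minus strand) are shown because, between fulvestrant alone and vehicle, Adamts2 was called higher and Adamts3 and Adamts9 lower. Capitals mark GGTCA, the core of an estrogen response element, and GGGCGG, the Sp1 box, read on either strand.
Adamts2: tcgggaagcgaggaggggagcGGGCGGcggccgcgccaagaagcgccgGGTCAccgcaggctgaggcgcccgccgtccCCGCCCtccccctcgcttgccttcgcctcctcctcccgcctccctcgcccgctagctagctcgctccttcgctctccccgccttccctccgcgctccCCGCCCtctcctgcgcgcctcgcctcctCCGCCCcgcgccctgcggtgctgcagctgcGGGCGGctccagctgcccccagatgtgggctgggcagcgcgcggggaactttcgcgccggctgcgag
Adamts3: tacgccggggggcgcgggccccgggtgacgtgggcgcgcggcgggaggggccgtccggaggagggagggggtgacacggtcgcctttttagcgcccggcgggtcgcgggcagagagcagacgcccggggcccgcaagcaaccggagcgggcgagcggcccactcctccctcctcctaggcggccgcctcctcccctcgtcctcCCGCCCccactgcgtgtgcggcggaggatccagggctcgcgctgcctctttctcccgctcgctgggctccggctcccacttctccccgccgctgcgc
Adamts9: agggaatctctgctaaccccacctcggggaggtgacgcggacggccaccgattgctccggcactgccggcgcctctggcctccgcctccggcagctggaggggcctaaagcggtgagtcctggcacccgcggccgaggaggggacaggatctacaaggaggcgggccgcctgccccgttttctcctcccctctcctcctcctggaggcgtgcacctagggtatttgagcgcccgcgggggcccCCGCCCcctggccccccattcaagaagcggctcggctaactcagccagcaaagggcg
The full palindromic element GGTCANNNTGACC was found in 0.0707% of 32544 promoters of this length and in none of the 5. The core GGTCA alone, which the palindrome contains, was found in 40.5% of all promoters. It occurred once in Adamts2, starting 202 bases before the start site, and once in Adamts12, 6 bases before it. GGGCGG was found in 35.9% of all promoters and occurred 5 times in Adamts2, 3 times in Adamts1 and once each in Adamts3 and Adamts9. TGANTCA, the AP-1 motif, was found in 7.79% of all promoters and in none of the 5. TATAAA was found in 13.6% of all promoters and, of the 5, in Adamts1, 32 bases before the start. These matches describe letters in a short window and were not tested against the expression values.

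The deposited values correspond to 18827792 to 44040507 reads over all 13233 genes of the table per sample. Esr1, which encodes the receptor that both agents bind, and Pgr, the progesterone receptor gene and a standard E2 target, served as the check of the treatments. With E2, Pgr was above vehicle by 1.88 ± 0.27 (log2 difference ± SE, adjusted p = 0.0343) and exceeded its level under E2 plus fulvestrant by 3.28 ± 0.27 (adjusted p = 4.7e-05). Esr1 itself was lower with fulvestrant than with vehicle at -1.46 ± 0.20 (adjusted p = 0.000993). Without replicate number in the fit the Pgr difference between E2 and vehicle was not past the threshold (adjusted p = 0.9999). Nor was the Esr1 difference between fulvestrant and vehicle (adjusted p = 0.363), while that of Pgr between E2 and E2 plus fulvestrant was (adjusted p = 0.0271). All 9 fibroblast markers on the list had a row, as did 1 of 4 endothelial markers (Tek), 1 of 4 immune markers (Cd68) and 2 of 3 mural markers (Myh11 and Cspg4). None of 6 myogenic, 3 adipocyte or 3 epithelial markers had one, and markers without a row were not analysed here. The summed level of the fibroblast markers was 441116 to 494270 normalized counts in vehicle, 507819 to 566358 with E2, 363101 to 376947 with E2 plus fulvestrant and 330770 to 395026 with fulvestrant alone. Collagen genes made up most of that sum, and its part in the differences below was not tested. Of these markers Col1a1, Col1a2, Col3a1 and Lum were called (adjusted p under 0.05 and fold change over 1.2) between E2 and E2 plus fulvestrant, Col1a1, Col3a1 and Lum between fulvestrant and vehicle, and none between E2 and vehicle. Pdgfra, Pdgfrb, Dcn, Thy1 and Fap were called in no comparison, with Pdgfra at 0.20 ± 0.10 (adjusted p = 0.218) and Pdgfrb at 0.08 ± 0.06 (adjusted p = 0.429) for E2 over E2 plus fulvestrant. In bulk RNA, fewer cells of a type and less RNA per cell cannot be told apart.

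Adamts5 and Adamts1, which lie next to each other on chromosome 16 with 53059 bases between them, were the most abundant of the 10 genes per length of exon. In vehicle they had 1722 ± 358 and 1592 ± 148 normalized counts per kilobase (SD, n = 3), and their ranges overlapped. Adamts2 (511 ± 117) and Adamts6 (505 ± 178) followed with overlapping ranges, and Adamts10 had 289 ± 74.9. The lower levels were 106 ± 144 for Adamts3, 84.5 ± 34.4 for Adamts12, 66.0 ± 3.64 for Adamts7, 60.6 ± 29.9 for Adamts9 and 37.1 ± 1.56 for Adamts4. Of these, Adamts3, Adamts12, Adamts7 and Adamts9 overlapped in range, while all 3 Adamts4 values lay below those of Adamts7, Adamts9 and Adamts12. Adamts4 had the lowest mean, but its values lay within the range of Adamts3, whose vehicle replicates 2 and 3 were below all 3 of them.

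**Figure D1:**
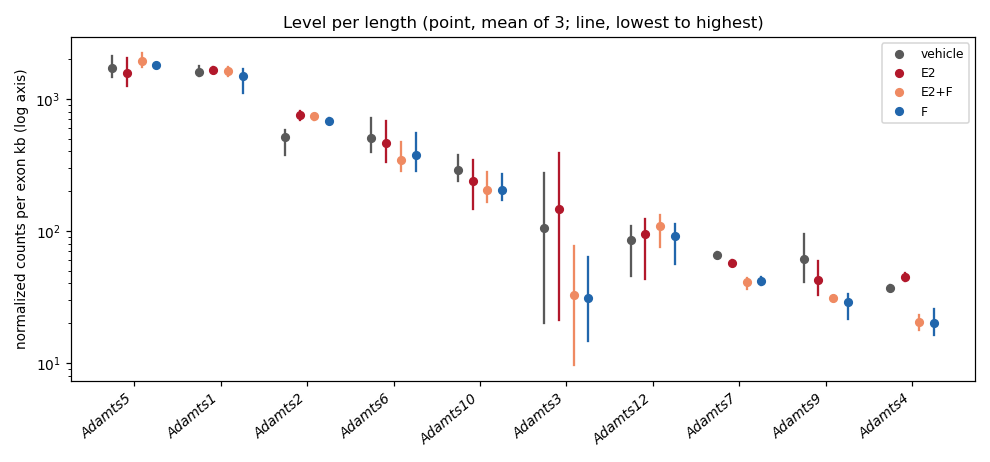
Normalized counts per kilobase of exon (log axis) of the 10 Adamts genes in the 4 groups, ordered by the vehicle mean; points are means of 3 samples and lines run from the lowest to the highest sample. Adamts5 and Adamts1 lie above 1000 in every sample, and Adamts3 has the widest spread, from 20.0 to 272 per kilobase in vehicle.

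Replicate number separated the samples more than treatment did for several of the genes. Over the whole table it took 70.0% of the variance of log2 values and treatment took 18.2%, and the main axis, with 70.8%, split replicate 1 from replicates 2 and 3. Adamts3 was 8.91-fold higher in the replicate 1 samples than in the others, and replicate number took 78.9% of its variance. Adamts6 and Adamts10 were 1.80-fold and 1.66-fold higher in replicate 1, whereas Adamts12 was 2.14-fold lower there. For these 4 genes the replicate 1 samples did not overlap the other 8, which was so for 45.0% of all genes. Adamts4 and Adamts7 were the reverse: treatment took 90.2% and 92.5% of their variance and replicate number 1.52% and 3.98%. Treatment also took most of the variance of Adamts2 (68.0%) and Adamts9 (54.2%). For Adamts1 neither did, and 74.1% remained after both.

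**Figure D2:**
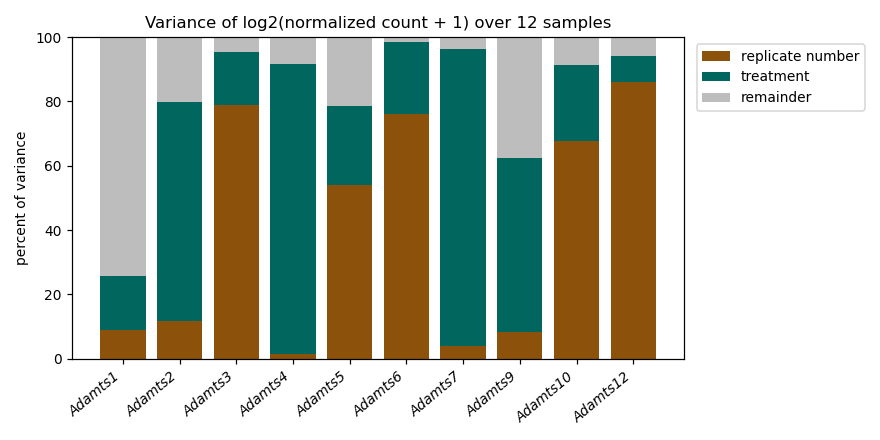
Share of the variance of log2(normalized count + 1) over 12 samples taken by replicate number, by treatment and by the remainder, for each Adamts gene (percent). Treatment takes over 90% for Adamts4 and Adamts7, and replicate number takes 67.6% to 86.0% for Adamts3, Adamts6, Adamts10 and Adamts12.

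**Figure D3:**
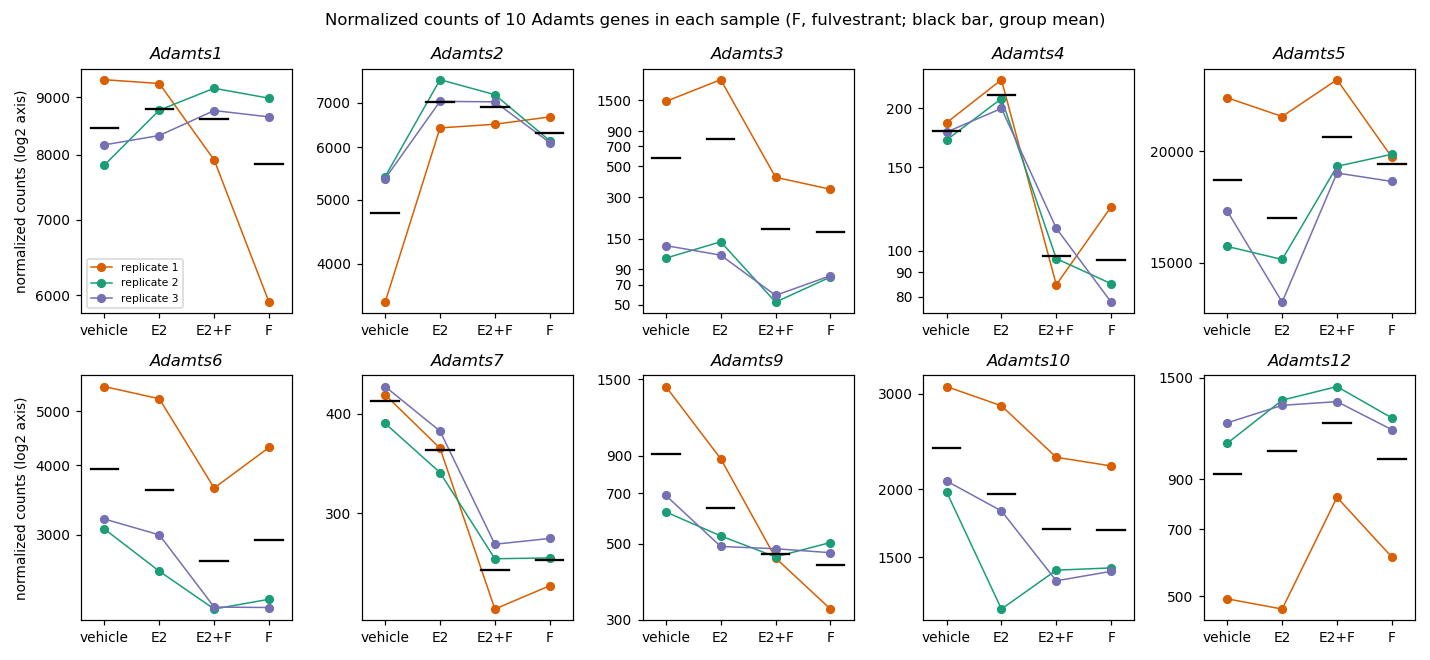
Normalized counts (log2 axis, a separate range for each gene) of the 10 Adamts genes in the 12 samples; lines join samples with the same replicate number and black bars are group means of 3. All 6 samples without fulvestrant lie above all 6 with it for Adamts4 and Adamts7, and replicate 1 stands above the others throughout for Adamts3, Adamts6 and Adamts10.

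E2 was first compared with E2 plus fulvestrant, the contrast the study used for E2 signaling through its receptor. Adamts3, Adamts4, Adamts6 and Adamts7 were higher with E2, by 2.98-fold, 2.18-fold, 1.32-fold and 1.41-fold, and no listed Adamts gene was called lower. A gene was called when its adjusted p was under 0.05 and its fold change over 1.2 (limma on log2(normalized count + 1), replicate number as a block), which held for 9.6% of all genes, 4.62% as higher and 4.97% as lower. The median difference of the 10 genes was 0.28 on the log2 scale, against -0.01 for all genes. The study named Adamts3 and Adamts6 among its E2-responsive genes, chosen in part on these same samples, so their direction here is not independent evidence. Without the block Adamts4 alone passed (adjusted p = 0.0320), when 0.521% of all genes did. The call of Adamts3 also rested on the E2 plus fulvestrant sample of replicate 1 (1.46 without it, adjusted p = 0.0567). Of the 4 genes only Adamts6 was called without all samples of replicate 2, where Adamts10 was called as well. Only Adamts4 was called without those of replicate 3. Among all genes, calls fell from 1270 with all samples to 342 without replicate 2 and 316 without replicate 3.

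Fulvestrant alone was then compared with vehicle, a contrast with no sample in common with the first. Adamts3, Adamts4, Adamts6, Adamts7, Adamts9 and Adamts10 were lower with fulvestrant, by 2.13-fold, 1.90-fold, 1.35-fold, 1.58-fold, 2.0-fold and 1.42-fold, and Adamts2 was 1.35-fold higher. Of all genes 12.5% were called, 5.69% as lower and 6.76% as higher. The median of the 10 genes was -0.47 and that of all genes 0.01. Without the block only Adamts7 passed (adjusted p = 0.0346), with 0.544% of all genes. With only these 2 groups in the blocked fit, the calls of Adamts2, Adamts3 and Adamts9 were lost. Leaving out all samples of replicate 2 or of replicate 3 left 3 and 1 of the listed genes called. Calls fell among all genes as well, from 1648 with all samples to 540 without replicate 2 and 399 without replicate 3.

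E2 plus fulvestrant against vehicle shares its samples with both comparisons above, and its values stand beside theirs without a test of overlap. In it Adamts3, Adamts4, Adamts6, Adamts7 and Adamts10 were lower, by 2.55-fold, 1.83-fold, 1.45-fold, 1.63-fold and 1.42-fold, and Adamts2 and Adamts12 were higher, by 1.48-fold and 1.35-fold. Of all genes 12.7% were called, 5.66% as lower and 7.04% as higher. Without the block Adamts7 alone passed (adjusted p = 0.0299), with 0.453% of all genes. Without replicate 2 or replicate 3 there were 3 calls, and without replicate 1 or without the fulvestrant sample of replicate 1 there were 8, Adamts9 being the addition. Over the whole table these fits called, in that order, 702, 541, 1742 and 1916 of 13233 genes, against 1681 with all samples.

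E2 alone against vehicle moved none of the 10 genes past the threshold, in a comparison in which 0.0756% of all genes, 10 in number, were called. At an unadjusted p under 0.05 there were 1340 genes, 4 of the listed ones among them (Adamts2, Adamts6, Adamts7 and Adamts10). Adamts2 came nearest, 1.5-fold higher with E2 (log2 difference 0.58 ± 0.12, 95% interval 0.32 to 0.84, adjusted p = 0.213) and higher in 3 of 3 same-numbered pairs. It was called without replicate 1 (0.44, adjusted p = 0.00857), without the fulvestrant sample of replicate 1 (0.58, adjusted p = 0.0477) and with only the E2 and vehicle samples fitted (adjusted p = 0.0397). E2 plus fulvestrant against fulvestrant alone, which asks for an E2 difference with the receptor antagonist present, called no gene of 13233 (0.0%) and had 255 at an unadjusted p under 0.05, Adamts12 among them (0.29, unadjusted p = 0.0463). The test of whether the E2 difference depended on fulvestrant also called none (0.0%), with 501 at an unadjusted p under 0.05. Adamts2 was the one listed gene among those (interaction 0.45 ± 0.17 on the log2 scale, unadjusted p = 0.0206, adjusted p = 0.944). Without the block these last tests called none either (0.0% each), with 34 and 67 genes at an unadjusted p under 0.05, and E2 against vehicle called 0.00756% of all genes and no listed one.

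**Figure D4:**
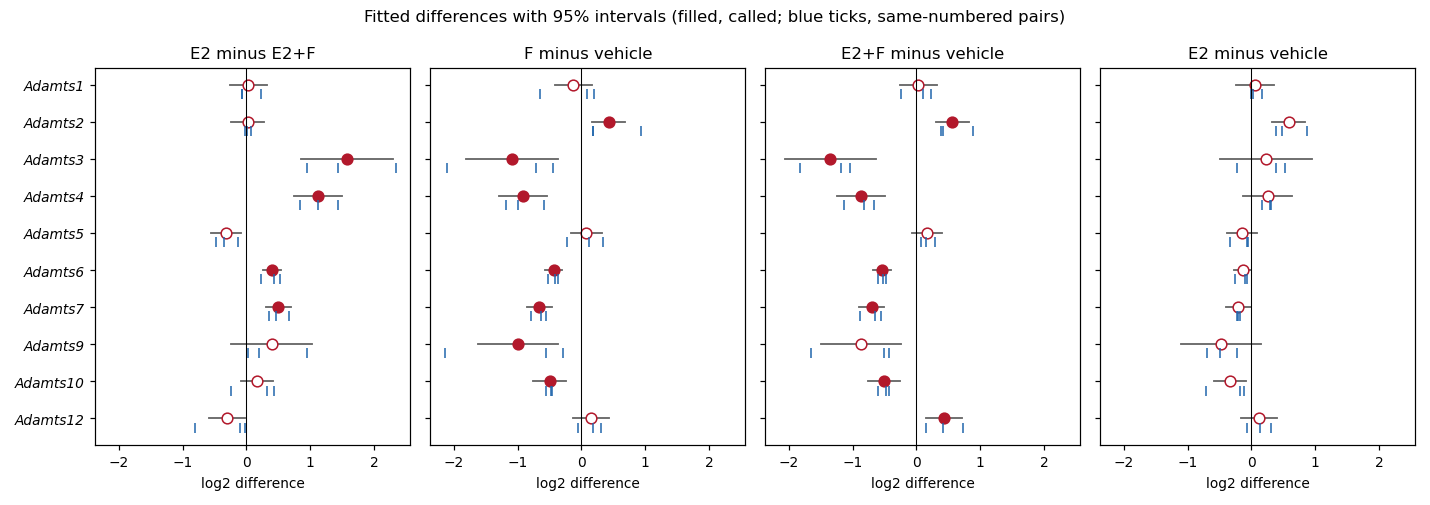
Fitted log2 differences of the 10 Adamts genes (points) with 95% intervals (lines) in 4 comparisons; filled points were called and blue ticks are the differences of the 3 same-numbered pairs. Adamts3, Adamts4, Adamts6 and Adamts7 are filled in each panel that sets samples with fulvestrant against samples without it, and no point is filled for E2 minus vehicle.

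Among the procollagen N-proteinases, Adamts3 (chr5:89677087-89883334, minus strand, GENCODE M21 on GRCm38) was read at 1478, 109 and 134 normalized counts in vehicle replicates 1, 2 and 3. With E2 it had 2121, 143 and 114, with E2 plus fulvestrant 418, 52.2 and 58.5, and with fulvestrant alone 342, 79.4 and 81.1. Replicate 1 was high in all 4 groups, so the groups overlapped, but within each number both fulvestrant samples lay below both samples without it. The difference between E2 and E2 plus fulvestrant was 1.58 ± 0.33 (adjusted p = 0.0108) and was 2.34, 1.43 and 0.95 in the 3 pairs. For fulvestrant against vehicle it was -1.09 ± 0.33 (adjusted p = 0.0444), a call that was lost when any sample but those of E2 replicates 1 and 3 was left out. Without the vehicle or the fulvestrant sample of replicate 1 it was -0.89 and -0.61, and adding 10 in place of 1 before the logarithm gave an adjusted p of 0.0527. Against vehicle, E2 plus fulvestrant gave -1.35 ± 0.33 (adjusted p = 0.0180), and this call was lost without vehicle replicate 1 (-1.15) or 3 (-1.36), or without E2 plus fulvestrant replicate 1 (-1.23) or 2 (-1.37).

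Adamts2 (chr11:50602084-50807573, plus strand), whose product trims procollagens I to III, went the other way. It had 3500, 5417 and 5382 normalized counts in vehicle, 6418, 7591 and 7039 with E2, 6500, 7205 and 7028 with E2 plus fulvestrant and 6668, 6139 and 6099 with fulvestrant alone. The 3 vehicle samples were the lowest of the 12, and the other groups overlapped each other. Relative to vehicle the differences were 0.58 with E2, 0.56 with E2 plus fulvestrant (SE 0.12, adjusted p = 0.00885) and 0.43 with fulvestrant alone (SE 0.12, adjusted p = 0.0309). E2 and E2 plus fulvestrant differed by 0.02 (95% interval -0.24 to 0.28). The vehicle sample of replicate 1 was the lowest of all, and without it the fulvestrant difference was 0.24 (adjusted p = 0.0642). It was 0.28 without fulvestrant replicate 1 and 0.49 without fulvestrant replicate 3, neither past the threshold.

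Of the proteoglycanases, Adamts4 (chr1:171250421-171260637, plus strand), an aggrecanase, followed the treatments most closely. It was read at 186, 171 and 178 normalized counts in vehicle, 230, 210 and 200 with E2, 84.7, 96.2 and 112 with E2 plus fulvestrant and 124, 85.1 and 77.8 with fulvestrant alone. All 6 samples with fulvestrant were below all 6 without it, and every E2 sample was above every vehicle sample. E2 exceeded E2 plus fulvestrant by 1.13 ± 0.17 (95% interval 0.75 to 1.5, adjusted p = 0.00200), and fulvestrant was below vehicle, at -0.92 ± 0.17 (adjusted p = 0.00511). The E2 difference from vehicle was 0.25 ± 0.17 (adjusted p = 0.628), positive in 3 of 3 pairs and not past the threshold. Leaving out any single sample kept Adamts4 called in all 3 comparisons with fulvestrant, E2 plus fulvestrant against vehicle included (-0.88 ± 0.17, adjusted p = 0.00621).

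Adamts9 (chr6:92772699-92943492, minus strand), a versican-cleaving enzyme, had 1429, 618 and 690 normalized counts in vehicle, 882, 526 and 490 with E2, 454, 457 and 483 with E2 plus fulvestrant and 323, 503 and 470 with fulvestrant alone. Vehicle and fulvestrant did not overlap, but the pairs were uneven, with differences of -2.14, -0.29 and -0.55. The fitted difference was -1.0 ± 0.29 (adjusted p = 0.0370). It was -0.64 without vehicle replicate 1 (adjusted p = 0.129) and -0.59 without fulvestrant replicate 1 (adjusted p = 0.0915). The call was lost too without vehicle replicate 3 (-1.13), fulvestrant replicate 3 (-1.16), or replicate 2 or 3 of E2 plus fulvestrant. E2 plus fulvestrant was also below vehicle in 3 of 3 pairs without passing the test (-0.87 ± 0.29, adjusted p = 0.0619), and passed it without fulvestrant replicate 1 (adjusted p = 0.0107) or with only these groups fitted (adjusted p = 0.0449). These pairs were uneven too, at -1.65, -0.43 and -0.51. Without all samples of replicate 1 the difference shrank to -0.47 and was called (adjusted p = 0.00915).

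Adamts5 and Adamts1, the abundant members of this class, passed in no comparison. Adamts5 (chr16:85856173-85901828, minus strand), the main aggrecanase of mouse cartilage, ranged from 13555 to 24057 normalized counts. Its difference between E2 and E2 plus fulvestrant was -0.32 ± 0.11 (adjusted p = 0.0779), lower with E2 in 3 of 3 pairs. It was called without E2 replicate 1 (-0.43, adjusted p = 0.0363) or without fulvestrant replicate 1 (adjusted p = 0.0174). Adamts1 (chr16:85793827-85803113, minus strand) ranged from 5913 to 9329, and the lowest value was fulvestrant replicate 1. The difference between fulvestrant and vehicle was -0.13 (95% interval -0.42 to 0.17), and it was 0.08 without that sample.

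Both genes of the fibrillin-associated pair were lower with fulvestrant than with vehicle, and Adamts6 alone of them was called between E2 and E2 plus fulvestrant. Adamts6 (chr13:104287835-104496695, plus strand) had 5542, 3072 and 3202 normalized counts in vehicle, 5269, 2580 and 2999 with E2, 3641, 2206 and 2224 with E2 plus fulvestrant and 4307, 2297 and 2220 with fulvestrant alone. Replicate 1 was high in every group, and within each number both samples without fulvestrant exceeded both with it. Its differences were small with narrow errors, 0.40 ± 0.063 for E2 against E2 plus fulvestrant (adjusted p = 0.00271) and -0.44 ± 0.063 for fulvestrant against vehicle (adjusted p = 0.00131). E2 was below vehicle in 3 of 3 pairs (-0.14 ± 0.063, adjusted p = 0.490). Leaving out any single sample kept Adamts6 called in all 3 comparisons with fulvestrant, although without the block none of the 3 passed (adjusted p = 0.919 to 0.995).

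Adamts10 (chr17:33524204-33553782, plus strand) was read at 3093, 1979 and 2072 normalized counts in vehicle, 2852, 1204 and 1825 with E2, 2292, 1420 and 1357 with E2 plus fulvestrant and 2209, 1433 and 1413 with fulvestrant alone. The E2 sample of replicate 2 was the lowest of the 12. Fulvestrant was below vehicle, at -0.50 ± 0.12 (adjusted p = 0.0150), with pairs at -0.49, -0.47 and -0.55. This call was lost without vehicle replicate 2 (-0.45) or 3 (-0.50) or fulvestrant replicate 3 (-0.47). E2 exceeded E2 plus fulvestrant by 0.17 ± 0.12 (adjusted p = 0.378) and by 0.37 without the low E2 sample, where the gene was called (adjusted p = 0.00543). Without all samples of replicate 3 this difference was 0.039. E2 plus fulvestrant against vehicle gave -0.51 ± 0.12 (adjusted p = 0.0136) and lost its call without vehicle replicate 2 or 3 or E2 plus fulvestrant replicate 1 or 3, at -0.46, -0.51, -0.51 and -0.44.

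The COMP-cleaving pair divided. Adamts7 (chr9:90163069-90208071, plus strand) had 422, 389 and 433 normalized counts in vehicle, 362, 337 and 380 with E2, 227, 263 and 274 with E2 plus fulvestrant and 243, 264 and 279 with fulvestrant alone. The 6 samples without fulvestrant were all above the 6 with it, and vehicle and E2 did not overlap. E2 exceeded E2 plus fulvestrant by 0.50 ± 0.091 (adjusted p = 0.00561), and fulvestrant was below vehicle at -0.66 ± 0.091 (adjusted p = 0.000966). E2 was lower than vehicle in 3 of 3 pairs, at -0.22, -0.20 and -0.18, without passing the test (adjusted p = 0.490). It was the one listed gene called in both comparisons with vehicle without the block, and leaving out any single sample kept it called in all 3 comparisons with fulvestrant.

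Adamts12 (chr15:11064790-11349231, plus strand) had 494, 1079 and 1195 normalized counts in vehicle, 470, 1339 and 1305 with E2, 822, 1433 and 1329 with E2 plus fulvestrant and 609, 1225 and 1155 with fulvestrant alone. Here replicate 1 was the low one in each group. E2 plus fulvestrant exceeded vehicle by 0.43 ± 0.13 (adjusted p = 0.0413), in 3 of 3 pairs. The difference was 0.28 without E2 plus fulvestrant replicate 1 (adjusted p = 0.191), and the call was lost also without any vehicle sample (0.39, 0.40 and 0.51 without replicates 1, 2 and 3), without E2 plus fulvestrant replicate 2 (0.48) or without fulvestrant replicate 2 (adjusted p = 0.0605). Between E2 and E2 plus fulvestrant it was -0.31 ± 0.13 (adjusted p = 0.143), and between fulvestrant and vehicle 0.15 ± 0.13 (adjusted p = 0.487). The former had pairs at -0.81, -0.10 and -0.03, and was -0.062 without all samples of replicate 1.

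The fulvestrant difference could be read in cultures with and without added E2, from samples that do not overlap. Of the 10 genes 9 had the same sign in both, Adamts2 being the exception, as did 73.9% of all genes. Called lower in both were Adamts3, Adamts4, Adamts6 and Adamts7, 4 of 10, against 425 genes or 3.21% of the table. The 10 were chosen with earlier results of these data known, so this share is a description and not a test. The 2 differences still shared the spread and the replicate terms of 1 fit over all 12 samples. Without the block, or without all samples of replicate 3, none of the 10 was called in both, and Adamts3 was not when each comparison was fitted on its own groups. None of the 10 was called higher in both, against 495 genes or 3.74%, and no gene of the table was called in opposite directions.

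**Figure D5:**
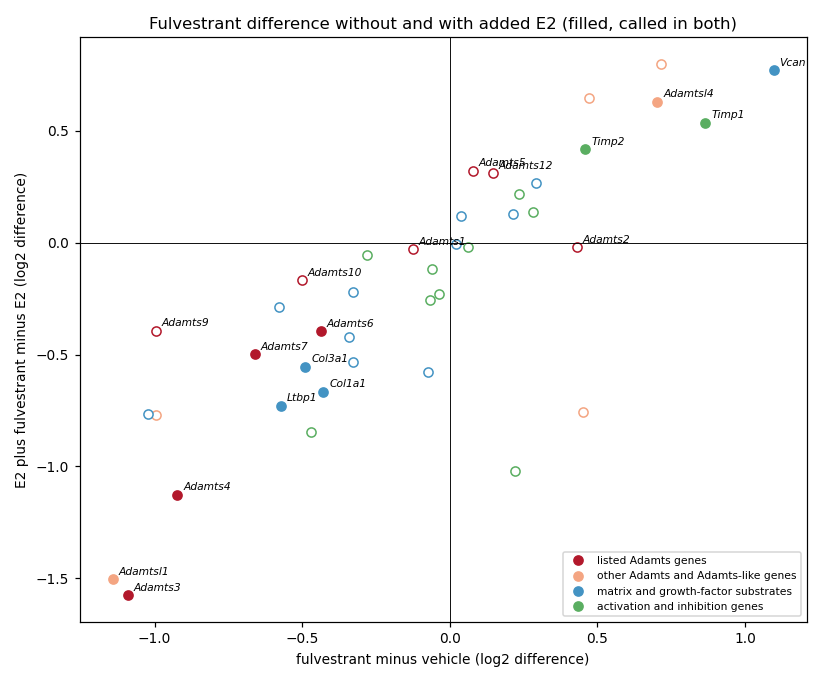
Log2 difference between fulvestrant and vehicle (horizontal) and between E2 plus fulvestrant and E2 (vertical) for the listed Adamts genes, other family members, substrates, and activation and inhibition genes; filled points were called in both. Adamts3, Adamts4, Adamts6, Adamts7, Adamtsl1, Ltbp1, Col1a1 and Col3a1 are filled at the lower left, and Vcan, Timp1, Timp2 and Adamtsl4 at the upper right.

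Of 15 further family genes 6 had a row (Adamts14, Adamts15, Adamtsl1, Adamtsl3, Adamtsl4 and Adamtsl5), and the rest were not analysed here. Adamts-like genes encode secreted matrix proteins without the protease domain. Between E2 and E2 plus fulvestrant 1 was higher and 3 were lower, and between fulvestrant and vehicle 1 was higher and 2 were lower. Over all genes 9.6% and 12.5% were called in these comparisons, and 12.7% between E2 plus fulvestrant and vehicle. Adamtsl1 had 4604, 1558 and 1748 normalized counts in vehicle, 5101, 2866 and 2339 with E2, 1719, 925 and 939 with E2 plus fulvestrant and 1913, 772 and 788 with fulvestrant alone. E2 exceeded E2 plus fulvestrant by 1.5 ± 0.12 for this gene (adjusted p = 4.14e-05), and fulvestrant differed from vehicle by -1.14 ± 0.12 (adjusted p = 0.000226). Adamtsl4 ran opposite, at -0.63 ± 0.15 and 0.70 ± 0.15 (adjusted p = 0.0222 and 0.0107). Adamtsl5 (-0.65) and Adamts14 (-0.80), the third procollagen N-proteinase gene, were lower under E2 than under E2 plus fulvestrant, and Adamtsl3 was lower with fulvestrant than with vehicle (-0.99). E2 plus fulvestrant against vehicle called Adamtsl4 and Adamtsl5 as higher and Adamtsl1 and Adamtsl3 as lower. Without the block none of these was called.

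Substrate and matrix genes of the enzymes were read for 14 of 18. Of all genes, 9.6% were called between E2 and E2 plus fulvestrant and 12.5% between fulvestrant and vehicle. Between E2 plus fulvestrant and vehicle it was 12.7%. E2 against E2 plus fulvestrant called 5 as higher, namely Col1a1 (0.67), Col1a2 (0.53) and Col3a1 (0.55), which encode the fibrillar collagens whose precursors ADAMTS2 and ADAMTS3 process, Fbn1 (0.58), the fibrillin-1 gene, and Ltbp1 (0.73), which encodes a TGF-beta-binding matrix protein. Vcan, the versican gene, was lower (-0.77). Fulvestrant against vehicle called 5 as lower, Col1a1 (-0.43), Col3a1 (-0.49), Fbn2 (-1.02), Ltbp1 (-0.57) and Comp (-0.58), and Vcan as higher (1.10). Vcan had 865, 2251 and 2819 normalized counts in vehicle, 1065, 3459 and 2897 with E2, 2958, 4409 and 4067 with E2 plus fulvestrant and 2205, 5147 and 4737 with fulvestrant alone. It was thus higher in both fulvestrant groups than in both other groups within each number. E2 plus fulvestrant against vehicle called Vcan as higher and Col1a1, Comp, Fbn2 and Ltbp1 as lower. Col1a1, Col1a2 and Col3a1 are also in the summed fibroblast markers given above, which moved the same way. The list had no call without the block.

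Genes for activation, O-fucosylation, inhibition and clearance of these enzymes were read for 11 of 13. The shares of all genes called were again 9.6% for E2 against E2 plus fulvestrant and 12.5% for fulvestrant against vehicle. For E2 plus fulvestrant against vehicle the share was 12.7%. Timp3, the inhibitor gene most tied to the family, was higher under E2 than under E2 plus fulvestrant by 0.85 ± 0.17 (adjusted p = 0.00859), while Timp1 (-0.54) and Timp2 (-0.42) were lower. With fulvestrant against vehicle Timp1 (0.87) and Timp2 (0.46) were higher, and Timp3 was not past the threshold. Furin, the convertase gene, was called once, higher with E2 plus fulvestrant than with vehicle (0.30 ± 0.044, adjusted p = 0.00126). For fulvestrant against vehicle (0.23, adjusted p = 0.00526) and E2 against E2 plus fulvestrant (-0.22, adjusted p = 0.00908) only its fold change fell short. The other 7 genes, Pcsk5, Pcsk6, Pofut2, B3glct, Lrp1, Sdc4 and Ccbe1, were called in no comparison. Pcsk6 fell short by fold change alone for E2 against E2 plus fulvestrant (0.26, adjusted p = 0.0347). E2 against vehicle called no gene on these lists, and without the block no gene on them was called in any comparison.

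After subtraction of the mean of each replicate number, the genes with the profile closest to each of the 8 Adamts genes called in some comparison over the 12 samples were listed by Pearson's r, as a description over samples that share their libraries and treatments. For Adamts7 they were Synpo (0.993), Marcks (0.991) and Zscan18 (0.989), and for Adamts4 Ldb2 (0.983), Rab9 (0.981) and Tmem158 (0.977). Adamts3 lay closest to Plekhh2 (0.991), Apln (0.984) and Igfbp3 (0.979), and Adamts6 to Gprasp2 (0.982), Zkscan7 (0.981) and Ctxn1 (0.975). For Adamts9 they were Fzd5 (0.997), Csgalnact1 (0.982) and Slit2 (0.974), and for Adamts2 Phex (0.974), Mrgprf (0.957) and Plod2 (0.95), which encodes a collagen lysyl hydroxylase. Adamts10 lay closest to Tcea2 (0.975), Mir99ahg (0.971) and Sycp2 (0.967), and Adamts12 to Trak1 (0.944), Plekha2 (0.932) and Smim1 (0.926). Among the listed genes themselves the closest pair was Adamts6 and Adamts7 (0.967), and the most opposed was Adamts2 and Adamts9 (-0.770).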

How the data were processed

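Total RNA of 12 samples was sequenced after ribosomal RNA depletion. As the labels and methods state, the authors trimmed reads with Trimmomatic 0.39, aligned them to mm10 with STAR 2.5.2, counted reverse-stranded reads per gene with HTSeq 0.13.5 and normalized with DESeq2 1.37 by median-of-ratios size factors. Their methods also describe batch variation on a principal component plot, reduced with ComBat-seq and limma. Whether the deposited values include that step is not given in the sources used here, and a split by replicate number remains in them. What was deposited is a signal in normalized read counts, without genes under 10 counts. Divided by the smallest step of their sample, 100% of values were whole to within 0.001 reads, which gave the read totals. No pair of samples was identical, and no per-sample column was left unused.

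Members and lists were chosen with earlier results of these data known. Here log2(value + 1) was fitted over 13233 genes and 12 samples with limma 3.58.1 (R 4.3.3, variance trend, treatment plus replicate number), with Benjamini-Hochberg adjustment over all genes, two-sided tests and 95% intervals. Replicate number was taken as a pairing by plan, and because the authors adjusted for batch variation. All 18 same-numbered pairs of samples deviated together from their group means (r 0.631 to 0.923). Pairs with different numbers were not compared, so this cannot show that replicates 2 and 3 were matched by number. The fit was also run on simulated counts with known changes between E2 and E2 plus fulvestrant, and the outcome is not reported here. Named were the 10 genes, called genes of the lists, Esr1 and Pgr, and for each called member the 3 genes of highest r. Exon lengths and coordinates came from GENCODE M21, with no exon of the 10 shared with another gene on the same strand. The alternatives were no block, a block of replicate 1 against 2 and 3, only the groups compared, a pseudocount of 10, a mean of at least 100, no variance trend, quantile normalization, adjusted p alone, and each sample or number left out. Groups of 3 were too small for a test of outlying samples.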

Additional observations from a re-analysis of the deposited data

How the results depend on the processing

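With no replicate block the genes called numbered 69 for E2 against E2 plus fulvestrant, 72 for fulvestrant against vehicle, 1 for E2 against vehicle and 60 for E2 plus fulvestrant against vehicle, with 1, 1, 0 and 1 of the Adamts genes. With only the groups compared in the blocked fit, fulvestrant against vehicle had 692 genes and 4 Adamts genes called, and E2 against vehicle 57 and 1. A block of replicate 1 against replicates 2 and 3 gave 17 genes for E2 against vehicle. Without the variance trend that comparison had 3, and fulvestrant against vehicle had 4 Adamts genes. Quantile normalization turned the sign of Adamts1 for E2 plus fulvestrant against vehicle to -0.059. Among the single Adamts differences, 15 calls were lost with no block, 4 without the variance trend, 3 under quantile normalization and 1 with a pseudocount of 10. A mean of at least 100 and adjusted p alone changed no call of an Adamts gene.

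Leaving out a sample, or all samples of a number, gave 316 to 1611 genes and 1 to 5 Adamts genes for E2 against E2 plus fulvestrant, 399 to 2312 and 1 to 7 for fulvestrant against vehicle, 0 to 59 and 0 to 1 for E2 against vehicle, and 541 to 1916 and 3 to 8 for E2 plus fulvestrant against vehicle. It gave 0 to 4 genes for E2 plus fulvestrant against fulvestrant and 0 to 11 for the interaction. The cause was not tested. Adamts1 changed sign, at -0.069 to 0.092, -0.29 to 0.14, -0.044 to 0.20 and -0.073 to 0.18 in these 4 comparisons in the order above, as did Adamts2 for E2 against E2 plus fulvestrant (-0.0079 to 0.053), Adamts5 for fulvestrant against vehicle (-0.055 to 0.23) and Adamts3 for E2 against vehicle (-0.17 to 0.55). The planned count models were not run. Depth was 18827792 reads or more per sample, with 3 samples per group.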
